A study of Saccharomyces cerevisiae with 18 samples.

Results

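The ratio of feral to wild strain expression was followed here from young to older yeast colonies. The 6 arrays used, of 18 in the series, were those on which RNA of BR-RF colonies was hybridised together with RNA of BR-F colonies of the same age, 3 arrays with 7-day-old and 3 with 4-day-old colonies. BR-F is a wild Saccharomyces cerevisiae strain whose colonies are structured biofilms, and BR-RF is a single feral clone that regained structured colonies after its smooth, domesticated parent BR-S had starved for a long time. All colonies grew on complete agar with glycerol as the carbon source, without any other treatment, and RNA came from whole colonies, so that fewer cells of a type and less RNA per cell cannot be told apart. Arrays 1 and 2 of each day carried the same RNA with the dyes exchanged and were averaged, whereas array 3 carried RNA of the second biological replicate, which gave 2 biological replicates a day. The quantity described throughout is the shift, the log2 ratio of BR-RF over BR-F on day 7 minus the same log2 ratio on day 4. A positive shift means that BR-RF gained on BR-F between the days, wherever the ratio stood before.

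Colonies on glycerol live by respiration and, as they age, use up their medium unevenly. Yeast takes sulfur from sulfate, which is activated, reduced to sulfide and joined to a carbon skeleton derived from homoserine, and the resulting homocysteine feeds methionine, cysteine and S-adenosylmethionine. When these products are scarce, the activator Met4 and its partners switch on the whole route, together with permeases and enzymes that release sulfur from sulfonates, S-methylmethionine and other organic compounds.

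After removal of spots without signal, between 9184 and 10219 named spots remained on the 6 arrays, and 4750 genes could be tested. The dyes left a clear trace. BR-RF carried Cy5 on array 1 of both days and on array 3 of day 4, whereas BR-F carried Cy5 on array 2 of both days and on array 3 of day 7, so that a gene that takes up the 2 dyes unequally moves in the shift. Over the genes tested, the correlation of the log2 ratios ranged between -0.04, for array 1 of day 7 and array 2 of day 4, and 0.78, for arrays 2 and 3 of day 7, and genes are not independent replicates. The spread of the ratios also differed, with an SD over genes of 0.849 on array 1 of day 7 and 0.373 on array 1 of day 4. A dye term was therefore fitted for each gene from those of the 18 arrays that gave a value for it. Its median size was 0.14 in log2, and in genes with missing arrays it rested on fewer arrays.

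The strain ratio moved little with age in most genes. The median shift was 0.00 in log2, with 2.5% of the genes below -0.89 and 2.5% above 0.88. With the dye term, 5 genes rose in BR-RF relative to BR-F (0.105% of those tested) and 0 fell at an adjusted p under 0.05 in limma, whereas 202 genes (4.25%) had a positive and 193 genes (4.06%) a negative shift at an unadjusted p under 0.05. The count depended strongly on the use of the arrays. Without the dye term 17 genes rose (0.355%) and 8 fell (0.167%). A fit in which the ratios of both strains to BR-S, from the other 12 arrays, had to add up to the direct ratio found 61 genes that rose (1.28%) and 53 that fell (1.11%), and 4 of the 5 genes were among them. It is called the closed fit below. Since it also holds the 6 arrays of the couple, its calls are not separate from the direct shifts. It also treats the replicate ratios of all couples as independent, although the sources used here do not state whether couples shared RNA. If they did, its p-values would be too small, so its calls below are a description of that fit.

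The gene with the largest shift was JLP1, which encodes a dioxygenase that releases sulfite from sulfonates. Its log2 ratio was 2.00, 2.08 and 3.03 on the 3 arrays of day 7, against -2.53, -2.63 and -2.31 on those of day 4. The strain difference thus turned over completely, with BR-RF far above BR-F in the older colonies and far below it in the younger. The shift was 4.87 ± 0.51 (SE, 2 biological replicates a day), a 29.2-fold change of the ratio, with an adjusted p of 0.0123 in limma. Like the other SEs given here, this SE took its variance from the replicates of all 3 couples, moderated over genes.

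MET17 encodes the enzyme that joins sulfide to O-acetylhomoserine, the step where inorganic sulfur enters organic form. Its log2 ratio was 1.82, 1.15 and 1.43 on day 7, against -0.14, -0.42 and -0.54 on day 4, and the shift of 1.99 ± 0.27 had an adjusted p of 0.0294. VAS1, the gene for valyl-tRNA synthetase, stood at 2.08, 1.70 and 2.15 on day 7, against -0.34, -1.0 and -0.71 on day 4 (shift 2.87 ± 0.39, adjusted p = 0.0294). TIS11, also known as CTH2, encodes a protein that promotes decay of mRNAs of iron-using proteins when iron is short. It gave 1.68, 0.61 and 0.50 on day 7, against -1.58 and -1.46 on arrays 2 and 3 of day 4, and no usable spot on array 1 of that day (shift 2.39 ± 0.34, adjusted p = 0.0353). In each of these 4 genes all day 7 arrays lay above all day 4 arrays, which held for 9.01% of all genes tested. Without array 3 of day 7, however, 0 genes passed, with adjusted p-values of 0.056 for JLP1 and 0.0909 for each of the other 3. JLP1 passed under the other 19 of 20 alternative settings.

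The fifth gene, PSF1, a subunit of the GINS complex of DNA replication, was of another kind and was named although its replicates overlapped. It had no usable spot on array 1 of either day, and its log2 ratio was 0.38 and -0.09 on arrays 2 and 3 of day 7, against -3.41 and 0.78 on day 4. The shift of 3.55 ± 0.34 (adjusted p = 0.016) rested on a fitted dye effect of 2.09, and without the dye term it was 1.46 with an adjusted p of 0.71. Removal of that dye effect placed both day 4 replicates of PSF1 at -1.32, so that their gap did not enter the SE. With loess within print blocks the shift was 0.59 (adjusted p = 0.685 in limma), and no shift through BR-S could be given. RAD61, the neighbouring gene, lacked the same arrays, and its shift of 1.45 ± 0.28 did not pass (adjusted p = 0.154).

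The arrays on which each strain was compared with BR-S gave the same quantity by another route, as the shift of BR-RF over BR-S minus that of BR-F over BR-S. Whether these arrays used the same RNA is not stated in the sources used here, so values are given side by side. Through BR-S the shift of JLP1 was 5.07 ± 0.81, that of VAS1 was 2.27 ± 0.62, that of TIS11 was 2.18 ± 0.56 and that of MET17 was 1.55 ± 0.42. Among 3889 genes measured there, 0 passed an adjusted p of 0.05 in limma (0.0% in either direction), and 42 (1.08%) with a positive and 61 (1.57%) with a negative shift had an unadjusted p under 0.05. The difference between both routes was tested for 3834 genes, of which 0 passed (0.0% in either direction). An unadjusted p under 0.05 was reached by 23 (0.6%) with a larger and 18 (0.469%) with a smaller direct shift.

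**Figure D1:**
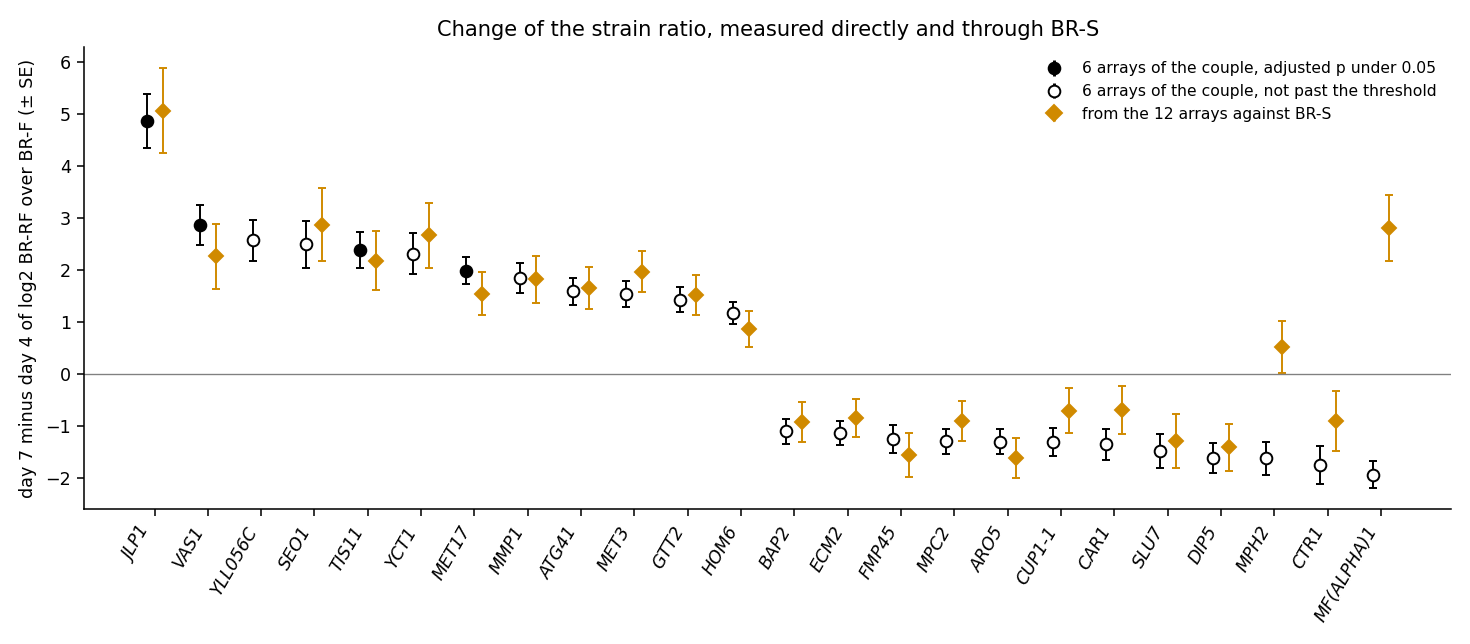
Shift of the log2 ratio of BR-RF over BR-F, day 7 minus day 4 (vertical axis, ± SE), for the 24 genes of the naming rule, with circles for the 6 arrays of the couple (filled where the adjusted p was under 0.05) and diamonds for the 12 arrays against BR-S. JLP1 stood highest by both routes, at 4.87 and 5.07, whereas MF(ALPHA)1 and MPH2 had opposite signs by the 2 routes.

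Genes for methionine and sulfur metabolism lay mostly on the upper side. Their list, like the others, was chosen with earlier results of these data known, so its counts are a description. Of 30 tested, 26 had a positive shift and 4 a negative one, with a median of 0.83 beside 0.00 over all genes. An unadjusted p under 0.05 was reached by 16 of them with a positive shift and by 0 with a negative one, beside 4.25% and 4.06% of all genes. JLP1 and MET17 passed the adjusted threshold with a positive shift, as did 0.105% of all genes. In the closed fit 13 of the 30 passed it, all with a positive shift, beside 1.28% of all genes. The median ratio of the list was 0.70, 0.46 and 0.62 on the arrays of day 7, against -0.03, -0.28 and -0.33 on those of day 4. The list therefore lay on opposite sides of equality on the 2 days, with no overlap between arrays. Through BR-S 20 of 28 genes of the list were positive and 8 negative, with a median of 0.70.

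The genes that bring sulfur compounds into the cell had large shifts, although no permease passed the adjusted threshold in the fit with the dye term. SEO1, a putative permease, stood at 1.21, 1.81 and 2.75 on day 7, against -0.56, -0.50 and -0.19 on day 4 (shift 2.49 ± 0.44, adjusted p = 0.075). YCT1, a cysteine permease, stood at 0.90, 2.23 and 2.17 on day 7, against -1.20, -0.75 and 0.06 on day 4 (2.32 ± 0.40, adjusted p = 0.075). MMP1 transports S-methylmethionine and stood at 2.37, 0.81 and 0.63 on day 7, against -0.04, -1.19 and 0.16 on day 4 (1.85 ± 0.29, adjusted p = 0.062). All arrays of day 7 lay above all arrays of day 4 in these 3 permease genes, and each passed in the closed fit with adjusted p-values between 0.000258 and 0.000312. The high-affinity sulfate permease SUL1 was far more scattered, at -0.79, 0.65 and 2.07 on day 7, against -1.37, -0.33 and -1.79 on day 4, so that arrays of both days overlapped (1.85 ± 0.64, adjusted p = 0.431). The high-affinity methionine permease MUP1 was shifted by 1.38 ± 0.31, with all day 7 arrays above all day 4 arrays, and the S-adenosylmethionine permease SAM3 by 1.16 ± 0.34 with overlapping arrays. Through BR-S the shift of MUP1 was 0.93 ± 0.48 and that of SAM3 was -0.09 ± 0.63.

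Within the pathway itself, the steps gave unequal values. MET3, the ATP sulfurylase that activates sulfate, had log2 ratios of 0.85, 0.56 and 1.07 on day 7, against -0.52, -0.74 and -0.99 on day 4 (shift 1.54 ± 0.25, adjusted p = 0.0674). MET22, the phosphatase that removes the by-product of sulfate reduction, stood at 2.75, 1.87 and 1.34 on day 7, against 0.47, -0.25 and 0.67 on day 4 (1.78 ± 0.36). Both were separated between the days on all arrays and passed in the closed fit. The genes for the following steps gave 0.74 ± 0.29 for the adenylylsulfate kinase MET14, 0.44 ± 0.31 for the PAPS reductase MET16, and 0.91 ± 0.29 and 1.5 ± 0.35 for the sulfite reductase subunits MET5 and MET10. Of the genes that make the sirohaem cofactor of this reductase, MET1 was shifted by 1.36 ± 0.39 and MET8 by -0.59 ± 0.35. Without array 1 of day 7 the shift of MET14 was 0.28 and that of MET1 was 0.81, and without array 2 of day 7 that of MET14 was 1.25. These genes did not pass with the dye term, and MET14 and MET10 passed in the closed fit.

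For the carbon skeleton and the way to cysteine the direction was less uniform. A list of 11 genes was drawn up after the values were seen. It holds genes that make and acetylate homoserine and genes between homocysteine, cysteine and S-adenosylmethionine. Of the 11 genes, 8 had a positive and 3 a negative shift, with a median of 0.49. The median ratio of the list was -0.05, 0.13 and 0.41 on day 7, against 0.04, -0.02 and -0.62 on day 4, so that arrays overlapped. The lowest of the negative shifts was -0.28. The members with a positive shift included the following. MET2, which acetylates homoserine, stood at 0.82, 1.22 and 1.65 on day 7, against -0.13, -0.02 and -0.67 on day 4 (1.52 ± 0.29, adjusted p = 0.0916). HOM6, the homoserine dehydrogenase, stood at 1.11, 0.96 and 0.96 on day 7, against -0.01, -0.36 and -0.22 on day 4 (1.18 ± 0.21, adjusted p = 0.0838). The arrays of the 2 days were separate in both genes. CYS4, which makes cystathionine, was shifted by 0.96 ± 0.26, and CYS3, which cleaves it to cysteine, by 1.32 ± 0.34 although its array 1 of day 7, at -0.79, lay within the day 4 values of -0.97, 0.52 and -1.03. MET28, a cofactor of Met4 that is not in this list, was shifted by 1.14 ± 0.35. HOM6, MET2, CYS3, CYS4 and MET28 passed in the closed fit. In contrast, the shift of the arylsulfatase gene BDS1, also not in this list, was -0.39 ± 0.42.

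**Figure D2:**
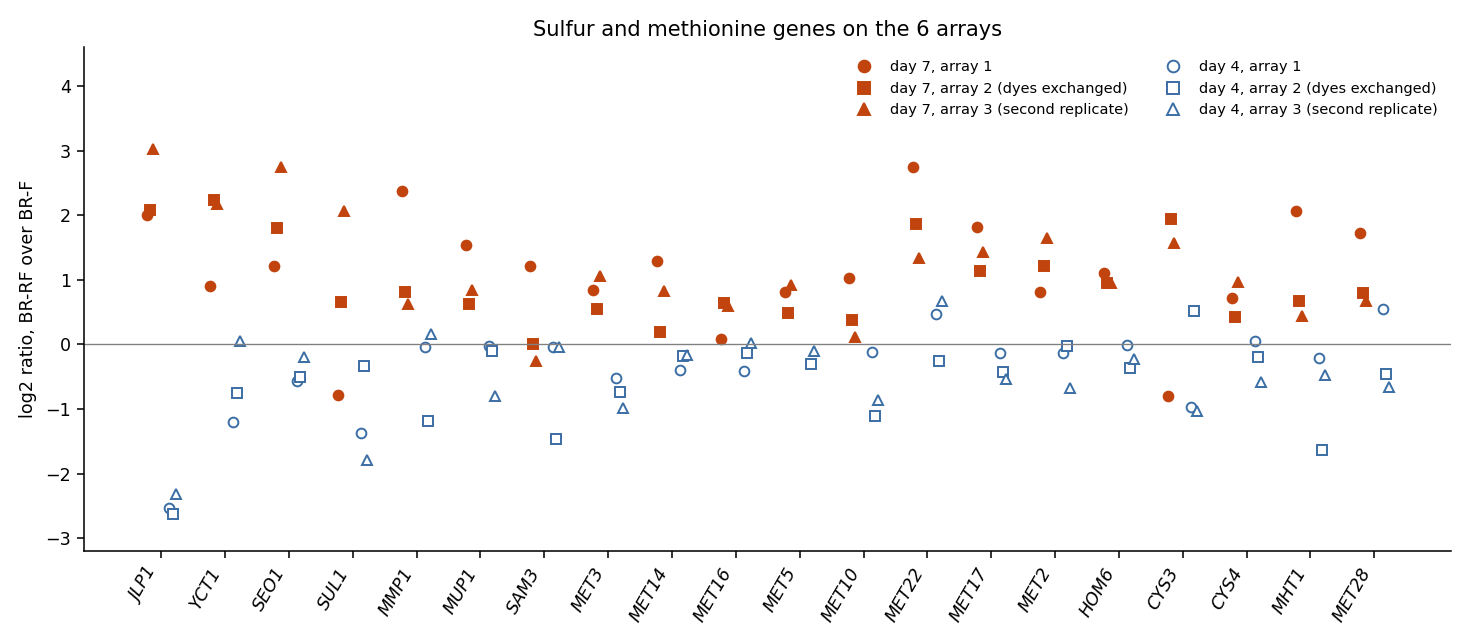
Log2 ratio of BR-RF over BR-F (vertical axis) of 20 sulfur and methionine genes on each of the 6 arrays, filled symbols for day 7 and open symbols for day 4, with 1 symbol shape per array number. The genes drawn all had a positive shift, and MET8 and BDS1, with negative shifts, are not shown. Most of the genes drawn lay above 0 on day 7 and below 0 on day 4, with the widest gap at JLP1 and scattered arrays at SUL1 and CYS3.

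JLP1 lies in a run of neighbouring genes close to the end of the left arm of chromosome XII, in the order of the RefSeq annotation of assembly R64. The run was singled out after its values had been seen. All 7 of its genes that were tested, YLL055W to YLL062C, had a positive shift with an unadjusted p under 0.05, which 4.25% of all genes had, and their median was 1.86. Since these values led to the choice of the run, they are a description. Towards the centromere it began with YCT1 and YLL056C, which had log2 ratios of 1.94, 2.02 and 2.38 on day 7, against -0.72, -1.04 and -0.55 on day 4 (shift 2.58 ± 0.39, adjusted p = 0.075). After JLP1 came HSU1, a sulfhydrylase gene (1.27 ± 0.45), GTT2, a glutathione S-transferase gene (1.43 ± 0.24), MMP1, and MHT1, whose enzyme uses S-methylmethionine to methylate homocysteine (1.86 ± 0.37). The tested genes beside the run did not share the shift. AQY2 on the inner side gave -0.51 ± 0.28, and PAU18 on the outer side gave 0.08 ± 0.39. The run showed 2 patterns over the arrays. YCT1, YLL056C and JLP1 were not highest on array 1 of day 7, whereas HSU1, GTT2, MMP1 and MHT1 had their highest ratio there and their lowest on array 2 of day 4. BR-RF carried Cy5 on the former array and BR-F on the latter. The fitted dye effects were -0.01, -0.32 and -0.11 for YCT1, YLL056C and JLP1. For HSU1, GTT2, MMP1 and MHT1 they were 0.44, 0.42, 0.51 and 0.26. The part of the dyes in the 2 patterns was not tested.

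**Figure D3:**
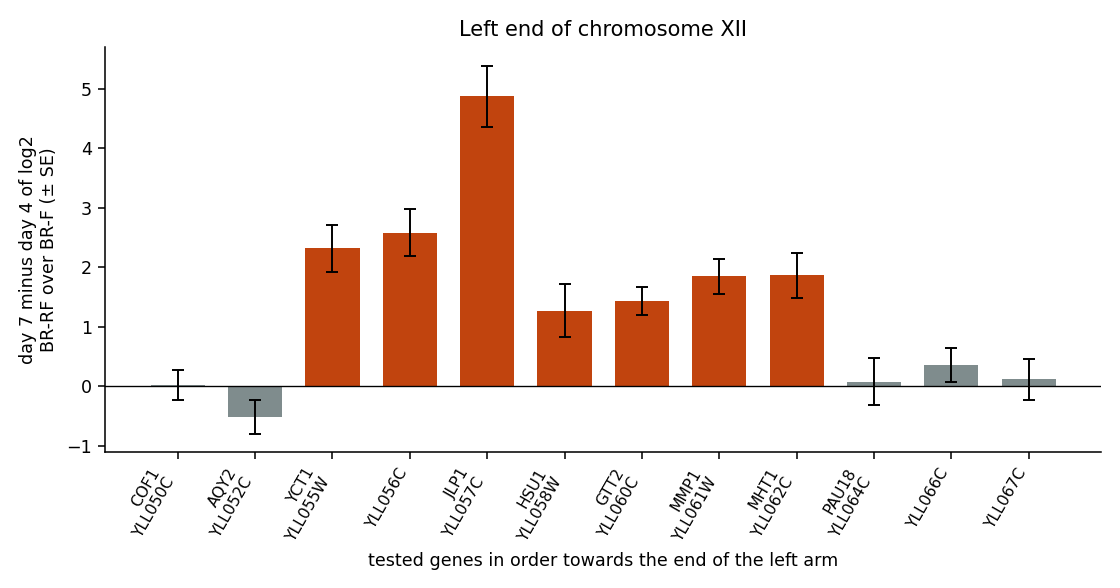
Shift (vertical axis, day 7 minus day 4 of log2 BR-RF over BR-F, ± SE) of the tested genes at the left end of chromosome XII in their order towards the chromosome end. The 7 coloured genes YLL055W to YLL062C had shifts between 1.27 and 4.87, and the grey neighbours lay between -0.51 and 0.35.

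Most other genes with small p-values on the upper side that are named here lie outside the sulfur route. ATG41, which is needed for selective autophagy and listed here with the zinc regulon, stood at 1.59, 1.30 and 1.46 on day 7, against 0.01, -0.27 and -0.28 on day 4 (1.60 ± 0.26, adjusted p = 0.0669). YIL165C on chromosome IX was shifted by 2.45 ± 0.46 (adjusted p = 0.124). It was grouped here, after the values were seen, with genes for the use of other sulfur sources. BNA3, an aminotransferase of kynurenine metabolism, was shifted by 1.55 ± 0.29, and TPC1, a mitochondrial carrier whose gene lies close to VAS1, by 2.08 ± 0.39. Through BR-S the shift of TPC1 was 0.45 ± 0.64. The hydrophilin gene GRE1 was shifted by 1.65 ± 0.31 (adjusted p = 0.0888), but its arrays overlapped, at 1.45, 1.38 and 0.99 on day 7, against 1.18, -1.32 and 0.75 on day 4.

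The 2 channels of each array were also read singly, as a description, since slide and day cannot be told apart for a single channel. For the sulfur genes the change lay mostly in BR-RF, where 27 of 30 had a higher level on day 7 than on day 4, with a median change of 0.64 in log2, whereas 13 of 30 did so in BR-F, with a median of -0.05. JLP1 changed by 4.30 in BR-RF and by -0.57 in BR-F. YLL056C, SEO1 and YCT1 changed by 3.06, 2.84 and 2.63 in BR-RF and by 0.48, 0.35 and 0.32 in BR-F. TIS11 and MET3 had the other pattern, with changes of 0.52 and 0.40 in BR-RF and of -1.87 and -1.13 in BR-F. MET17 and VAS1 moved apart in both strains, by 1.38 and 1.85 in BR-RF and by -0.61 and -1.02 in BR-F.

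**Figure D4:**
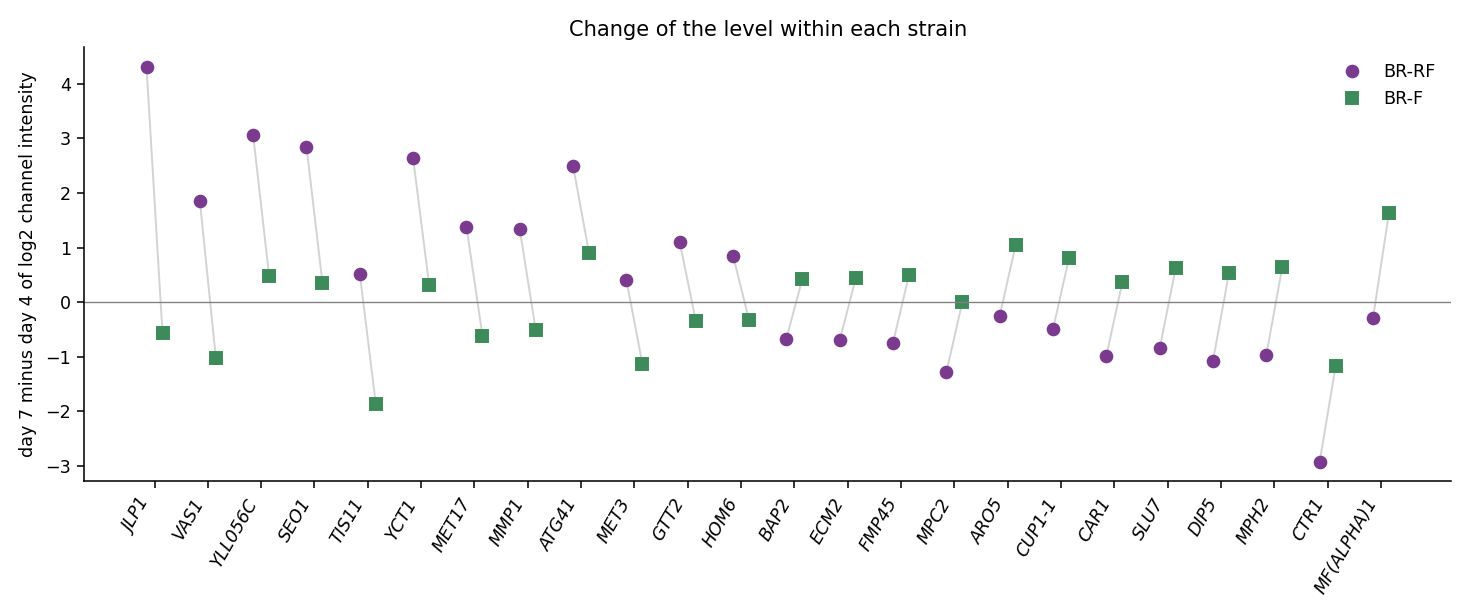
Change of the log2 channel intensity between the days (day 7 minus day 4, vertical axis) in BR-RF (circles) and in BR-F (squares) for the 24 genes of the naming rule, after removal of the dye effect. The circle of JLP1 stood at 4.30 and its square at -0.57, and no error is drawn because these values are a description.

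On the lower side no gene passed with the dye term, and permease genes and genes of amino acid use were among those with the smallest p-values. DIP5, the permease of dicarboxylic amino acids, stood at -2.44, -1.90 and -1.70 on day 7, against -0.60, -0.13 and -0.28 on day 4 (shift -1.61 ± 0.29, adjusted p = 0.075). ARO5 stood at -2.12, -1.36 and -1.65 on day 7, against -0.32, -0.48 and -0.31 on day 4 (-1.30 ± 0.24, adjusted p = 0.0888). MPC2, a subunit of the mitochondrial pyruvate carrier, stood at -1.58, -0.79 and -0.85 on day 7, against -0.19, 0.14 and 0.06 on day 4 (-1.29 ± 0.24, adjusted p = 0.0888). In these 3 genes BR-RF was below BR-F on every day 7 array, and all day 7 arrays lay below all day 4 arrays, which held for 6.82% of all genes. BAP2, a permease of branched-chain amino acids (-1.10 ± 0.24), and CAR1, the arginase (-1.34 ± 0.29), were separated in the same way, although for CAR1 array 2 of day 7, at -0.78, was close to array 3 of day 4, at -0.72. ECM2 and SLU7, which both encode splicing factors, were shifted by -1.13 ± 0.23 and -1.47 ± 0.33, and FMP45, a membrane protein of the cell cortex, by -1.25 ± 0.26. All 8 of these genes passed in the closed fit.

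The gene with the smallest p on this side, MF(ALPHA)1 for the alpha-factor pheromone, had no usable spot on array 1 of either day. Its log2 ratio was -0.43 and -0.34 on arrays 2 and 3 of day 7, against 1.53 and 0.15 on those of day 4 (-1.93 ± 0.26, adjusted p = 0.075), but through BR-S the shift was 2.81 ± 0.64, of opposite sign. It was not among the genes for which the difference between routes was tested. MPH2, one of several near-identical maltose permease genes that probes may not tell apart, stood at -5.10, -1.80 and -3.36 on day 7, against -1.49, -2.25 and -2.11 on day 4 (-1.61 ± 0.32), and at 0.52 ± 0.50 through BR-S. The difference between both routes had an unadjusted p of 0.0101 for MPH2.

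Copper genes made up a small group on the lower side. Of 11 tested, 7 had a negative shift, 5 of them with an unadjusted p under 0.05 (4.06% of all genes), and the median was -0.62. CUP1-1 and CUP1-2 are among the 5 and give a single signal. The high-affinity copper permease CTR1 stood at -2.27, -1.30 and -1.87 on day 7, against -0.25, 0.36 and -0.03 on day 4 (-1.75 ± 0.37, adjusted p = 0.124). CTR3, the other high-affinity permease, gave -4.62, -1.59 and -1.95 on day 7, against -1.34, -1.10 and -1.34 on day 4, and its shift of -1.44 ± 0.40 became -0.49 without array 1 of day 7. The metallothionein CUP1-1 was shifted by -1.30 ± 0.27 and CUP1-2, its identical copy, by -1.41 ± 0.37. In the closed fit 4 copper genes fell (1.11% of all genes), both CUP1 copies included, and the median of the list was -0.16. Genes of the iron regulon did not follow TIS11, since their median was -0.12 and 9 of 25 were positive.

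Ribosomal protein genes also had mostly positive, though smaller, shifts. Of 128 tested, 111 had a positive and 17 a negative shift, with a median of 0.41. Their median ratio was 1.20, 0.97 and 0.82 on day 7, against 0.42, 0.46 and 0.75 on day 4, so that they stood above equality on both days and higher on all arrays of day 7. An unadjusted p under 0.05 was reached by 19 with a positive and by 2 with a negative shift, beside 4.25% and 4.06% of all genes. With the dye term 0 passed the adjusted threshold, whereas 4 rose in the closed fit (1.28% of all genes). RPP2A, a protein of the ribosomal stalk, had the smallest p (1.10 ± 0.29, adjusted p = 0.249). The median through BR-S was 0.15, lower than by the direct route. Many of these genes are pairs of close copies that probes may not separate. The median level of the group changed by 0.11 in BR-RF and by -0.29 in BR-F. Neither ribosome biogenesis (median 0.01 over 91 genes) nor translation factors (0.15 over 38) were shifted alike, and mitochondrial ribosomal proteins had a median of -0.17, with 49 of 63 negative.

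**Figure D5:**
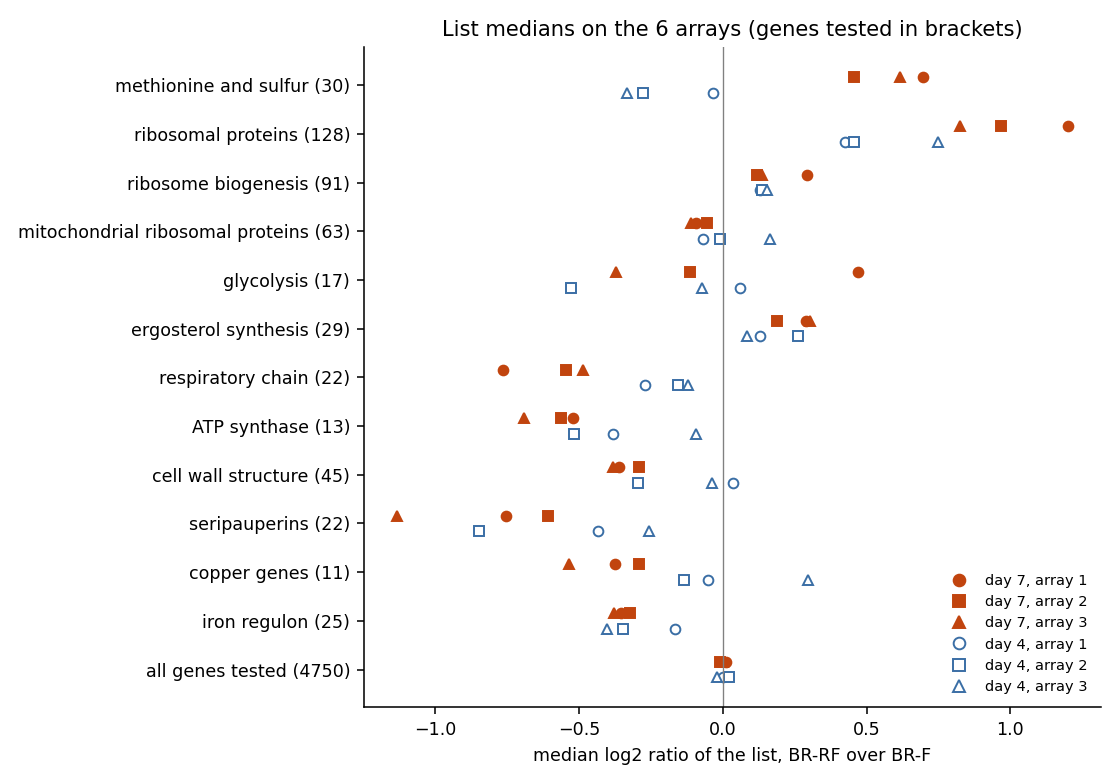
Median log2 ratio of BR-RF over BR-F (horizontal axis) of 12 gene lists and of all genes tested on each of the 6 arrays, filled symbols for day 7 and open symbols for day 4. The sulfur list lay between 0.46 and 0.70 on day 7 and between -0.33 and -0.03 on day 4, whereas the medians of all genes stayed near 0.

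Respiratory genes pointed the other way. Among 22 genes of the respiratory chain, 17 had a negative shift and 4 of these an unadjusted p under 0.05 (4.06% of all genes), with a median of -0.29, and the median ratio was -0.76, -0.54 and -0.49 on day 7, against -0.27, -0.16 and -0.12 on day 4. The array medians of the 2 days did not overlap. Cytochrome c, encoded by CYC1, was shifted by -1.06 ± 0.29 (adjusted p = 0.269), its isoform CYC7 by -1.0 ± 0.28 and the cytochrome oxidase subunit COX7 by -0.77 ± 0.30. CYC1 was the only gene of the list that fell in the closed fit. HAP4, the activator of respiratory genes, stood at -0.45, -0.66 and -0.92 on day 7, against 0.31, 0.33 and -0.04 on day 4 (-0.76 ± 0.32), and ATP1, the alpha subunit of ATP synthase, was shifted by -0.76 ± 0.26. Both also fell in the closed fit. The D-lactate dehydrogenase DLD1, already lower in BR-RF on day 4, stood at -2.83, -2.58 and -2.48 on day 7, against -0.88, -1.05 and -1.45 on day 4 (-1.33 ± 0.30, adjusted p = 0.154). The lactate permease JEN1 and the gluconeogenic enzyme FBP1 gave -0.81 ± 0.28 and -0.68 ± 0.44, and without array 1 of day 7 the shift of FBP1 was -0.01.

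The sign of the shift of glycolytic genes depended on the dye term and on the route. With the dye term 15 of 17 were positive with a median of 0.39, but without it the median was -0.13, and through BR-S it was -0.42 with 15 of 17 negative. Their medians on single arrays were 0.47, -0.11 and -0.37 on day 7, against 0.06, -0.53 and -0.07 on day 4. GPM1, the phosphoglycerate mutase, had the smallest p (1.62 ± 0.33) and ENO2, an enolase, gave 1.30 ± 0.34, against -0.44 ± 0.54 through BR-S. Fermentation genes likewise had a median of 0.24 with the dye term and -0.08 without it. Among them PDC6, the minor pyruvate decarboxylase, was shifted by 2.08 ± 0.53 (adjusted p = 0.249) and rose in the closed fit, whereas the main isoform PDC1 gave 1.14 ± 0.30 directly and -1.14 ± 0.47 through BR-S.

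At the cell surface, 32 of 45 cell wall genes had a negative shift, with a median of -0.16. An unadjusted p under 0.05 was reached by 4 with a negative and by 2 with a positive shift, beside 4.06% and 4.25% of all genes. TIP1, a cell wall mannoprotein, stood at -2.67, -1.89 and -2.94 on day 7, against -0.63, -2.16 and -0.38 on day 4 (-1.36 ± 0.32, adjusted p = 0.185). Arrays of both days overlapped, and TIP1 fell in the closed fit. Seripauperins, a family of near-identical subtelomeric cell wall genes that probes may not separate, were negative in 19 of 22, with a median of -0.30. Their median ratio was -0.75, -0.61 and -1.13 on day 7, against -0.43, -0.85 and -0.26 on day 4, so that arrays overlapped. An unadjusted p under 0.05 in limma was reached by 2 with a negative shift, beside 4.06% of all genes. FLO11, the adhesin that structured colonies need, gave 0.00 and 0.03 on arrays 2 and 3 of day 7, against -0.29 and -0.25 on arrays 1 and 3 of day 4, and its shift of 0.38 ± 0.36 did not pass (adjusted p = 0.829). The shift was 0.01 ± 0.66 for BSC1, a gene with similarity to FLO11, 0.38 ± 0.34 for the mannosyltransferase gene MNN9 and -0.28 ± 0.39 for the general amino acid permease GAP1.

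Sterol synthesis had a median shift of 0.17, with 21 of 29 genes positive. Its C-5 desaturase ERG3, on the right arm of chromosome XII, was higher in BR-RF on both days, at 2.71, 2.26 and 2.61 on day 7, against 1.42, 1.47 and 0.91 on day 4 (1.29 ± 0.29, adjusted p = 0.154), and rose in the closed fit. The inositol permease ITR1, the leading gene of the list for fatty acid and phospholipid synthesis, was shifted by -1.10 ± 0.30 and fell in that fit. The ribonucleotide reductase subunit RNR4 (1.25 ± 0.32) rose there and FES1, a nucleotide exchange factor of Hsp70 (-1.40 ± 0.37), fell there. The phosphate permease PHO89 (-1.80 ± 0.63) and OAF1, an activator of peroxisomal genes (-1.83 ± 0.56), did not pass there, and both had their lowest ratio on array 1 of day 7. Without that array the shift of PHO89 was -0.67. Single lists for the tricarboxylic acid cycle, reserve carbohydrates, amino acid, purine and lipid synthesis, autophagy and the proteasome had medians between -0.28 and 0.12.

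Genes were also grouped by position. Genes on the left arm of chromosome XV averaged 0.64 above the median of all other genes on day 7, against 0.54 on day 4, and those of chromosome IX 0.36 on day 7, against 0.26 on day 4, both after removal of the dye effect. Genes on the right arm of chromosome XII averaged -0.05 on day 7, against -0.15 on day 4. The differences between the days, 0.10 for chromosome XV, 0.10 for chromosome IX and 0.11 for chromosome XII, were not tested. In the closed fit they were 0.02, 0.05 and 0.12.

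Markers of other cell types were only partly measured. Of 12 markers of sporulating cells 4 were tested, with shifts between -0.19 and 0.34, of 7 markers of haploid or mating cells 4, between -0.56 and 0.16, and of 5 markers of filamentous cells 4, between -0.25 and 0.47. None of these 12 genes had an unadjusted p under 0.05 in limma. MF(ALPHA)1, an alpha-cell gene, is not among these markers. In the wider list of mating and cell type genes it and STE7, a kinase of the pheromone response (-0.94 ± 0.33), were the 2 of 17 with an unadjusted p under 0.05, both with a negative shift, beside 4.06% of all genes. Their part in the shifts above was not tested.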

How the data were processed

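The 18 array files hold, per the file headers, background-subtracted median spot intensity in Cy3 and Cy5 and the local background signal, which the authors took from scans with TIGR Spotfinder, with segmentation settings that differed between arrays. The deposited value table holds log2 ratios after the authors' LOWESS in MIDAS and was used as an alternative. Spots marked as poor, or without intensity above 0 in both channels, were left out. Log2 ratios were normalised by loess (span 0.3), and 11146 named spots were averaged to 5543 genes through the platform annotation and the RefSeq R64 table. Ribosomal protein spots were brighter than others, with medians of 12.6 and 11.6 in log2 Cy3, only under the spot order used.

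Arrays of the same RNA were averaged. In limma 3.58.1 (R 4.3.3) the 12 replicate ratios were fitted with a mean for each couple and day and 1 dye term, and p-values were adjusted by Benjamini-Hochberg over the genes measured in all replicates of the couple. The design gives replicates as separate samples without saying what was repeated, so p-values measure the spread between these samples. The number of arrays limits the precision.

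Genes named are the 12 on each side that were called with separate replicates, completed by the smallest p, then called or leading members of the lists, and 10 fixed genes. PSF1, RAD61, STE7, TPC1, BNA3, the run on chromosome XII and single members of the sulfur, copper, respiratory and glycolytic lists were chosen after their values were seen. Members and lists were chosen with earlier results of these data known. Scripts were tested on simulated data. No sequence is shown.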

Additional observations from a re-analysis of the deposited data

Results flagged for a closer look

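Genes are listed here because the strain difference on day 7 differed from that on day 4 by a test of the difference itself, at an adjusted p under 0.05 in limma. They were JLP1, with a shift of 4.87 in log2, PSF1 with 3.55, VAS1 with 2.87, TIS11 with 2.39 and MET17 with 1.99. Of these, PSF1 was measured on 2 of 3 arrays a day, had overlapping replicates and rested on its fitted dye effect.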

How the results depend on the processing

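Counts of genes that rose or fell depended on how the dyes and arrays were used. With the dye term 5 rose and 0 fell, with 202 and 193 at an unadjusted p under 0.05 in limma. Against this, 17 rose and 8 fell without the dye term, 27 and 20 with the dye effect taken from the dye-swapped pairs, 39 and 28 with each array taken separately, and 61 and 53 in the closed fit. With only the 6 arrays of the couple 1 rose and 0 fell. Loess within print blocks gave 17 and 7, median centring 6 and 1, and at least 2 spots on each array 3 and 0. The study's rule of an unadjusted p under 0.05 and 1.5-fold gave 186 and 184. Keeping poor spots, leaving out the dimmest genes, a trended prior and the deposited value table left between 4 and 5 that rose and 0 that fell.

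Leaving out 1 array at a time gave between 0 and 22 that rose and between 0 and 13 that fell. The count was 0 without array 3 of day 7, 1 without array 2 of day 4, 2 without array 1 of day 7, 3 without array 3 of day 4, 20 without array 2 of day 7 and 22 without array 1 of day 4. The cause was not tested. VAS1 and MET17 lost their calls on leaving out, in turn, array 1 of day 7, array 3 of day 7, array 2 of day 4 or array 3 of day 4, and TIS11 without array 1 or 3 of day 7 or array 3 of day 4, with no change of sign. With only the 6 arrays VAS1 (adjusted p = 0.0747), TIS11 (0.258) and MET17 (0.258) were lost, VAS1 also with median centring (0.0637) and print-block loess (0.0738), and MET17 with the deposited value table (0.0521).

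With the replicate number as a block 1 gene rose and 0 fell, and VAS1 (adjusted p = 0.0691), TIS11 (0.0691) and MET17 (0.153) were lost. The numbers pair nothing by the labels, and the deviations of same-numbered replicates correlated at -0.54 as measured and -0.29 after removal of the dye effect over genes. With the numbers crossed, a setting added after seeing the data, 12 rose and 6 fell.

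Shifts of 6 named genes that had not passed changed sign, not all of them small. HXT2, at 0.98 with the dye term, and CTS1, at 0.49, gave -0.62 and -0.031 both without the dye term and with only the 6 arrays. ADY2, at 1.13 with the dye term, gave -1.14 in the deposited value table. BSC1 gave -0.00534 with the dye effect from the pairs, -0.18 with separate arrays, -0.18 in the closed fit, -0.33 with print blocks, -0.045 in the value table, and between -0.45 and 0.26 with 1 array left out. GAP1 gave 0.0020 with the dye effect from the pairs and between -0.78 and 0.10 with 1 array left out, and MNN9 gave -0.048 in the closed fit. Over all alternatives the named genes kept direction and side of the threshold in 1648 values, passed it in 213, lost it in 26 and changed sign in 16. Only 5 of the 98 named genes had a call to lose, so most of the unchanged values belong to genes without a call in either fit. Calls were lost in 1 of 20 settings for JLP1, 8 of 20 for VAS1, 7 of 20 for MET17, 5 of 18 for TIS11 and 5 of 13 for PSF1. Leaving out 1 array also moved the uncalled shifts of MPH2, ECM2, ATP1, RPP2A, FES1, CYS3, SUL1, MET8, MET16, MET28, BDS1, COX7 and CYC7 by over 1.5 times. The median of the sulfur list lay between 0.59 and 0.89 over the 20 settings. Spots of low signal over background limit single genes, among them those with missing arrays such as PSF1 and MF(ALPHA)1.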
